A study of Mus musculus with 12 samples.

Results

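The genes described here encode subunits of the mitochondrial respiratory chain and the ATP synthase, together with a few of their assembly factors, as measured in the ascending aorta of mice. They were taken by symbol from the array's annotation: every gene whose symbol begins with Nduf, Uqcr, Cox4 to Cox8 or Atp5, or is Sdha, Sdhb, Sdhc or Sdhd. Only probe sets that name a single gene were used, and for each gene the one with the highest mean over the arrays stands for it. This gave 89 of the 19938 genes on the array. Of these, 88 lay above the filter on dim probe sets and were tested: 36 Nduf genes of complex I, 7 Ndufaf genes for complex I assembly factors, which are not subunits of the finished complex, 4 of complex II, 8 of complex III, 16 of complex IV and 17 of complex V, the ATP synthase. Cox7b2, the testis isoform of a complex IV subunit, lay between log2 5.68 and 5.93 on all 12 arrays, under the filter at log2 7.31 (an intensity of 159), and was not tested. Cox7c and Ndufb4 were read by probe sets that also name a second gene and were left out, and the 13 subunits encoded in mitochondrial DNA were not analysed here.

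The study combined 2 Fbn1 genotypes with loss or presence of Tgfbr2 in smooth muscle cells, with 3 arrays in each of 4 groups of mice aged 6 weeks. Mutant knockouts and mutant controls were heterozygous for the C1039G allele of fibrillin-1, a mouse model of Marfan syndrome. Wild-type knockouts and wild-type controls had normal Fbn1. All 4 groups carried floxed alleles of Tgfbr2, the type II TGF-beta receptor, and Myh11-CreERT2, a Cre recombinase driven by a smooth muscle promoter that acts once tamoxifen is given, so that other cells of the wall keep the receptor. Knockouts were injected with 1 mg of tamoxifen on 5 days from 4 weeks of age and controls with corn oil over the same days. Knockout and tamoxifen therefore cannot be told apart. The labels do not say that each array came from a separate animal, so the spread behind each p-value may be technical.

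The respiratory chain passes electrons from NADH (complex I) and succinate (complex II) through complex III to oxygen at complex IV, and the proton gradient this builds drives ATP synthesis by complex V. Most subunits are encoded in the nucleus and imported into mitochondria, while assembly factors help to build the complexes. Several complex IV subunits have alternative isoforms that are typical of striated muscle, brown fat, lung or testis. Vascular smooth muscle also draws on glycolysis for much of its ATP.

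Promoters of these genes are known for sites of NRF1, ETS family factors (among them NRF2) and YY1, and 4 promoters of members that rose with knockout are shown to give the sequence behind these names. Promoters were taken from RefSeq on GRCm38.p6, 250 bases before the gene's start and 50 from it on, and 73 of the 89 members had at least 1, which gave 78 promoters. The motifs searched on both strands were GCGCA, any base and GCGC for NRF1, CCGGAAG for ETS factors, and AA, any base and ATGGCGG for YY1, and none of the 3 is part of another. In the sequences below, capitals mark a match to any of them. Atp5h lies at chr11:115419870-115420169 (minus strand), with an NRF1 match at -141 and an ETS match at -38. Ndufa11 lies at chr17:56717512-56717811 (plus strand), with an NRF1 match at -60. Cox8a lies at chr19:7217567-7217866 (minus strand), with ETS matches at -5 and 32. Ndufs4 lies at chr13:114388045-114388344 (minus strand), with a YY1 match at 35. Positions are those of the match's first base, with the gene's first base as 0.
Atp5h: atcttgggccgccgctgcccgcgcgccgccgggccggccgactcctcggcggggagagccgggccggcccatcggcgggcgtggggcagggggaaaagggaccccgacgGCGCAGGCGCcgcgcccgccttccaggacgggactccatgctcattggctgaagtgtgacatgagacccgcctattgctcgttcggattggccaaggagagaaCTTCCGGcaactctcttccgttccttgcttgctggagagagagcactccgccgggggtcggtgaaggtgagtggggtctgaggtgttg
Ndufa11: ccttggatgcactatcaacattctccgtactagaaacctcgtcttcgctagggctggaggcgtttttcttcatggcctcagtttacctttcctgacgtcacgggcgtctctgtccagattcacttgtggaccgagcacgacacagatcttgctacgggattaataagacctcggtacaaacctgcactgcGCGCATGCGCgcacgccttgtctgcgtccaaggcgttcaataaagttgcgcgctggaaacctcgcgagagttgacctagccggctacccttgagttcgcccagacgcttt
Cox8a: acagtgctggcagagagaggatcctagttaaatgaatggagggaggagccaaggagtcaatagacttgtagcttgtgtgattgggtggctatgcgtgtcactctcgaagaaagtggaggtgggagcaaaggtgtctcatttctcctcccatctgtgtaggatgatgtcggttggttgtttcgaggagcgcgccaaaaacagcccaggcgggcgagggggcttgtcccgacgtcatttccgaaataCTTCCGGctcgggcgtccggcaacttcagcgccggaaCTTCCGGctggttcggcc
Ndufs4: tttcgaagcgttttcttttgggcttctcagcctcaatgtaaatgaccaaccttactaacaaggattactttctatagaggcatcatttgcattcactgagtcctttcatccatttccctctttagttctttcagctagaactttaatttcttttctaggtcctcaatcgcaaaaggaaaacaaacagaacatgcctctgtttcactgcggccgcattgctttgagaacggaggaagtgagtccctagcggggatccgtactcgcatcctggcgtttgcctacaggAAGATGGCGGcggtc

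The NRF1 letters stood in 24.4% of the 78 member promoters, against 8.37% of the 14880 promoters of genes tested and 4.6% of all 32851 promoters. The ETS letters stood in 23.1% of member promoters, against 14.5% of those of genes tested and 8.86% of all promoters. For YY1 the shares were 7.69%, 2.49% and 1.36% of the same sets. At least 1 of the 3 motifs was found in 36 of the 73 members with a promoter (49.3%), against 26.4% of the genes tested and 15% of all genes with a promoter. Among the 15 members that rose in the mean knockout effect, described next, 14 had a promoter and 5 of these 14 held a motif, a smaller share than over the members as a whole, with no test of the difference. The other besides those shown was Ndufb6, with ETS letters at -232. These matches describe the letters of a window and not binding.

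Median intensity per array lay between 301 and 334, and log2 values of arrays correlated at 0.995 to 0.997 within groups and at 0.991 to 0.996 across groups. All 12 smooth muscle markers listed were above the filter, as were all 15 macrophage and all 12 endothelial markers listed. The summed intensity of the smooth muscle markers was 131388 to 133672 in mutant knockouts and 129486 to 134148 in mutant controls. It was 131473 to 133166 in wild-type knockouts and 134231 to 135472 in wild-type controls. Tgfbr2 itself differed by 0.04 ± 0.052 on the log2 scale between knockouts and controls in the mutant and by -0.08 ± 0.052 in the wild-type (limma's adjusted p = 0.594 and 0.324). No clear loss was thus read by its probe set, and where that probe set lies in the gene was not analysed here. For 4 of the 6 knockout arrays, numbers 2 and 3 of each genotype, the free-text description names Tgfbr3 or Tgfbr4, while the title says Tgfbr2. Arrays are called knockout after their titles. Each difference is on the log2 scale, between 2 group means, with the standard error (SE) that limma gives after ±, and a gene is said to have risen or fallen where its p-value, adjusted over all 14944 genes tested, was under 0.05.

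Marker lists of other tissue differed between the groups in their mean level. A list's score is the mean over its genes of the log2 value less that gene's mean over the 12 arrays. For brown adipocyte markers (11 tested of 15 on the array) it lay between 0.21 and 0.30 in mutant knockouts and between -0.15 and -0.03 in mutant controls, and between -0.07 and 0.03 in wild-type knockouts and between -0.16 and -0.09 in wild-type controls. Every knockout array stood above every control array of its genotype. Summed intensity was 13716 to 14754 in mutant knockouts, 10826 to 11335 in mutant controls, 11122 to 12024 in wild-type knockouts and 10642 to 11416 in wild-type controls, so the wild-type groups overlapped on that measure. Defining brown fat genes Ucp1, Elovl3, Slc27a2 and Zic1 had means under the filter, although Ucp1 reached 8.21 on mutant knockout array 1 and 8.58 on mutant control array 3. The score did not always follow Ucp1. It was -0.03 on mutant control array 3, but 0.23 on mutant knockout array 3, where Ucp1 read 6.88. For cardiac muscle markers (17 tested of 18) the score lay between 0.15 and 0.38 in mutant knockouts, -0.18 and 0.04 in mutant controls, -0.04 and 0.10 in wild-type knockouts, and -0.21 and -0.18 in wild-type controls, and the summed intensity was 18600 to 20825 in mutant knockouts, 11055 to 14803 in mutant controls, 16427 to 18701 in wild-type knockouts and 11974 to 13820 in wild-type controls. Every knockout array again stood above every control array of its genotype, in score and in sum. Myl2, a ventricular marker, was under the filter. With knockout, 5 cardiac markers rose and 1 fell in the mutant, and 3 rose and 1 fell in the wild-type. Of brown adipocyte markers 4 rose in the mutant, and 3 rose and 3 fell in the wild-type. The median difference of the 11 brown adipocyte markers was 0.07 in each genotype. Their highest difference was 1.24 in the mutant and 0.86 in the wild-type, so the score was not an even move of the list.

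Of the other cell type lists, macrophage markers rose with knockout in 8 of 15 genes in the mutant and in 15 of 15 in the wild-type. Endothelial markers rose in 6 of 12 in the mutant and 5 of 12 in the wild-type. Of 9 skeletal muscle markers 5 rose and 1 fell in the mutant, and 1 rose and 1 fell in the wild-type. Of 13 adipocyte markers 2 rose in the mutant and 1 fell in the wild-type. Smooth muscle markers gave 2 rises and 2 falls among 12 in the mutant and 1 rise and 3 falls in the wild-type. Erythroid markers gave 0 calls by limma among 3 in either genotype, with 1 at an unadjusted p under 0.05 in each. In whole tissue, fewer cells of a type and less RNA per cell cannot be told apart, and the part of these cells in the differences below was not tested.

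With knockout and control compared as the mean of both Fbn1 genotypes, 15 of the 88 members rose and 0 fell. All 15 are structural subunits, 7 of complex I, 5 of complex IV and 3 of complex V, and their differences lay between 0.10 and 0.22, or 1.07-fold and 1.16-fold. That is 17% of the members, against 28.9% of all genes tested that were called in either direction, 15% upward and 13.9% downward, so the share that rose was near the background. Cox8b had the largest difference of all, 0.24, but did not pass (adjusted p = 0.52). Of the members 69 had a difference above 0 (78.4%, beside 53.4% of all genes), and the median was 0.05, beside 0.01 over all genes. Of the 15 rises, 4 kept their call when each array was centred on its median, where Ndufaf4 fell, 7 kept it without mutant knockout array 1 and mutant control array 3, the 2 arrays of high Ucp1, 8 kept it without wild-type knockout array 3, where Atp5k fell, and 0 kept it with the brown adipocyte or the cardiac score as a covariate. Among all 14944 genes, 3 were called with the brown adipocyte covariate and 284 with the cardiac one, against 4316 without them. The members' median was -0.0066 with the brown adipocyte covariate and 0.06 with the cardiac one. Without the 2 arrays of high Ucp1 it was 0.06, and 3424 of all genes were called. Both covariate scores were higher on every knockout array than on the controls of its genotype, so these fits cannot separate them from knockout. The brown adipocyte score also includes Ppargc1a, a coactivator for NRF1 and its targets, and so does not read brown fat alone.

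**Figure D1:**
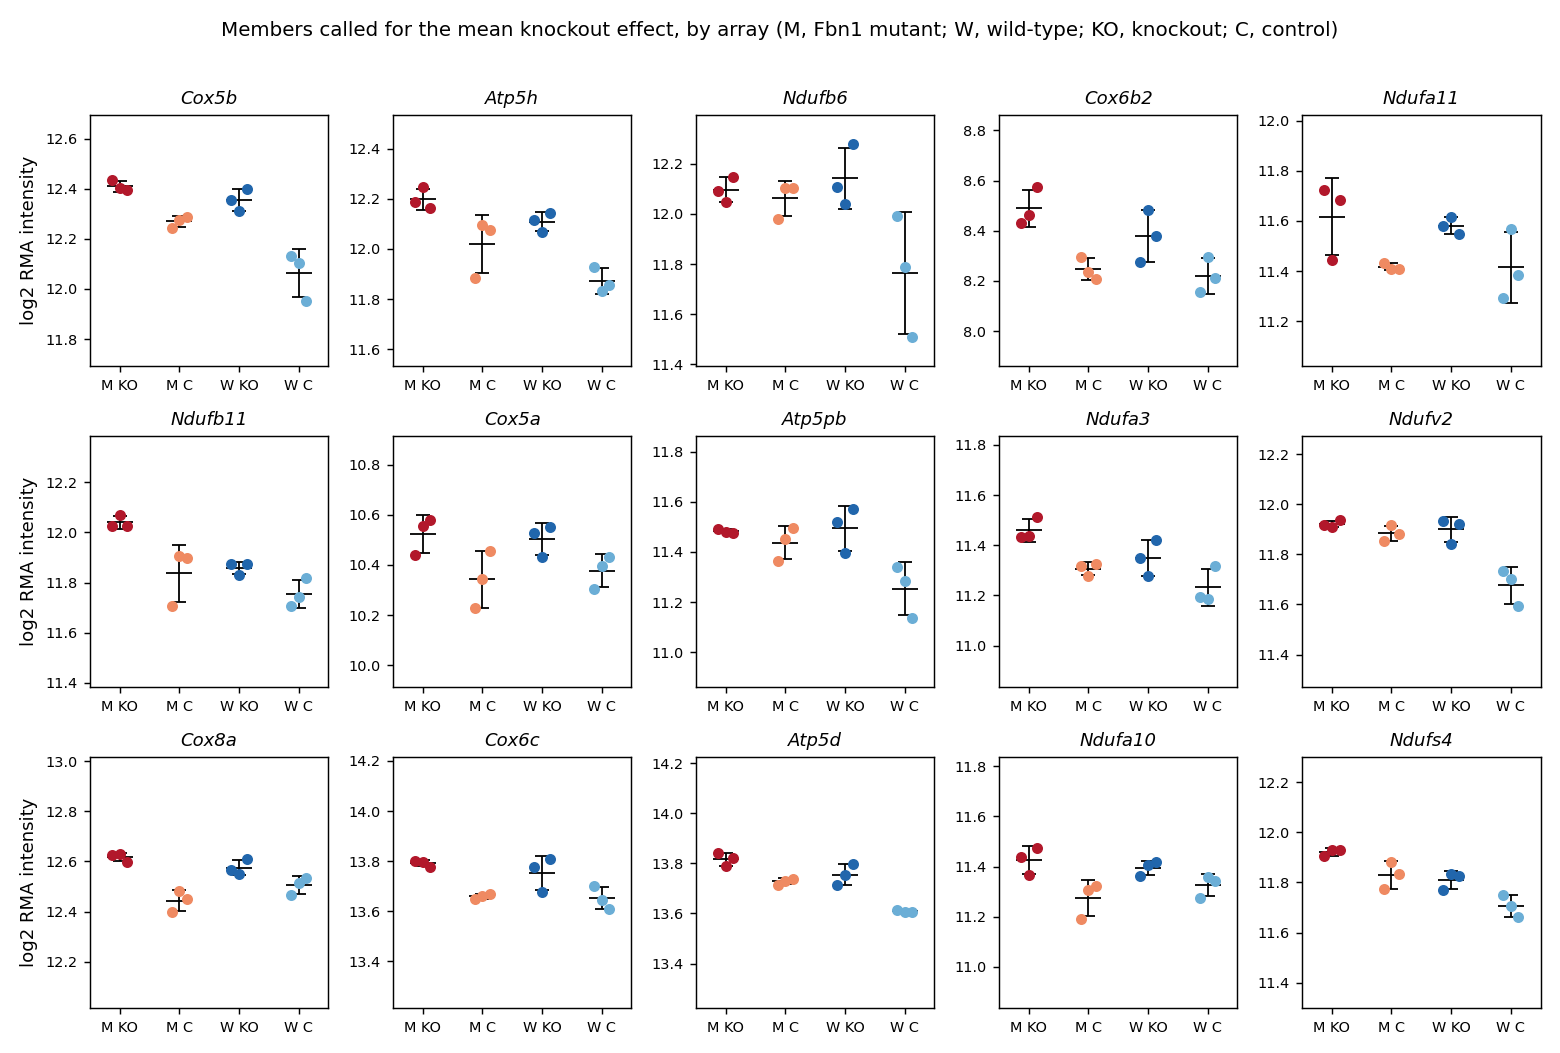
Log2 intensity of the 15 members that rose in the mean knockout effect, 1 panel a gene, with a point for each array and the group mean ± SD (n = 3) in black; M is Fbn1 mutant, W wild-type, KO knockout and C control. Each vertical axis spans the same log2 range at its own level. Cox5b stands higher in all 3 knockout arrays than in all 3 control arrays of the same genotype, while Ndufb6 does so in the wild-type only.

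Complex IV held the clearest single member. Cox5b, a nuclear subunit on the matrix side of cytochrome c oxidase, read 12.43, 12.40 and 12.39 on the mutant knockout arrays, against 12.24, 12.28 and 12.29 on mutant control arrays. It read 12.35, 12.31 and 12.40 in wild-type knockouts, against 12.13, 12.10 and 11.95 in wild-type controls. Neither pair of groups overlapped, and wild-type controls were the lowest of the 4 groups. The mean difference was 0.22 ± 0.037 (adjusted p = 0.00111), and of the alternatives only the brown adipocyte and cardiac covariates ended the call.

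Cox6b2, Cox8a, Cox5a and Cox6c also rose. Cox6b2, known as the testis isoform of Cox6b, read 8.43, 8.46 and 8.57 in mutant knockouts, against 8.30, 8.24 and 8.21 in mutant controls, and 8.27, 8.48 and 8.38 in wild-type knockouts, against 8.15, 8.29 and 8.21 in wild-type controls. The mutant groups were apart and the wild-type groups overlapped, and the mean difference was 0.20 ± 0.045 (adjusted p = 0.00551). Its intensity was low, 285 to 381, near the array medians, and it was not tested with the filter set at the median. Cox8a, the widespread isoform of the smallest subunit, whose promoter is printed above, differed by 0.12 ± 0.031 (adjusted p = 0.0122), Cox5a, a nuclear partner of Cox5b, by 0.15 ± 0.047 (adjusted p = 0.0271) and Cox6c, another nuclear subunit, by 0.12 ± 0.033 (adjusted p = 0.021). All 16 complex IV genes tested had a difference above 0, with a median of 0.09, and the other 11 did not pass. Cox5a lost its call in 10 of 23 alternatives.

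In complex I, 7 of the 36 genes classed there by their Nduf symbol rose and 29 had a difference above 0. Ndufb6, an accessory subunit of the membrane arm, read 12.11, 12.04 and 12.28 in wild-type knockouts, against 11.99, 11.79 and 11.51 in wild-type controls, but 12.09, 12.05 and 12.15 in mutant knockouts, against 11.98, 12.10 and 12.10 in mutant controls. Only the wild-type groups were apart, and the mean difference of 0.21 ± 0.071 (adjusted p = 0.0463) turned to -0.06 (adjusted p = 0.969) with the brown adipocyte covariate. Ndufa11, an accessory subunit whose promoter is printed above, differed by 0.18 ± 0.056 (adjusted p = 0.0269) and Ndufb11, an accessory subunit of the membrane arm, by 0.15 ± 0.041 (adjusted p = 0.0141). Ndufv2, which carries an iron-sulfur cluster where NADH is oxidised, differed by 0.13 ± 0.035 (adjusted p = 0.0154). Ndufa3, Ndufa10 and Ndufs4, accessory subunits, differed by 0.14, 0.11 and 0.10, with adjusted p of 0.0196, 0.0376 and 0.0429. Of 23 alternatives, Ndufs4 and Ndufb6 each lost their call in 16, Ndufa10 in 11 and Ndufa11 in 10.

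Complex V gave 3 rises among 17, of which 2 belong to the peripheral stalk that holds the catalytic head still. Atp5h, subunit d, whose promoter is printed above, read 12.19, 12.25 and 12.16 in mutant knockouts, against 11.89, 12.10 and 12.08 in mutant controls. It read 12.12, 12.07 and 12.14 in wild-type knockouts, against 11.93, 11.83 and 11.85 in wild-type controls. Both pairs were apart, with a mean difference of 0.21 ± 0.042 (adjusted p = 0.00319). Atp5pb, subunit b of the same stalk, differed by 0.14 ± 0.045 (adjusted p = 0.03), and Atp5d, the delta subunit of the rotating stalk, by 0.12 ± 0.030 (adjusted p = 0.0121). Atp5pb lost its call in 11 of 23 alternatives. The catalytic subunits Atp5a1 and Atp5b differed by 0.09 ± 0.036 (adjusted p = 0.0763) and 0.06 ± 0.031 (adjusted p = 0.184) and did not pass.

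No member of the other classes passed limma's test in the mean effect. In complex II, 2 of 4 genes had an unadjusted p under 0.05, in complex III 1 of 8, and among the assembly factors 1 of 7. Medians were 0.06, 0.05 and -0.06 for these classes in the same order. In complex II, which is also an enzyme of the tricarboxylic acid cycle, the flavoprotein Sdha differed by 0.02 ± 0.037 (adjusted p = 0.703), the iron-sulfur protein Sdhb by 0.08 ± 0.038 (adjusted p = 0.116), and the membrane anchors Sdhc by 0.03 ± 0.038 (adjusted p = 0.526) and Sdhd by 0.09 ± 0.042 (adjusted p = 0.114). In complex III, the Rieske iron-sulfur protein Uqcrfs1 differed by -0.04 ± 0.041 (adjusted p = 0.535), while the core proteins Uqcrc1 and Uqcrc2 differed by 0.14 ± 0.069 (adjusted p = 0.14) and 0.07 ± 0.038 (adjusted p = 0.183). The small subunits ranged between -0.01 for Uqcr11 and 0.11 for Uqcrq. All 7 assembly factors had a difference below 0, the lowest being Ndufaf4 at -0.14 ± 0.056 (adjusted p = 0.076), which was also the lowest of all members, followed by 2 complex V genes, Atp5k at -0.10 ± 0.050 (adjusted p = 0.166) and Atp5l at -0.09 ± 0.049 (adjusted p = 0.164). Ndufaf4 passed as a fall when arrays were centred on their medians, with array weights, and without wild-type control array 1 or mutant control array 1.

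**Figure D2:**
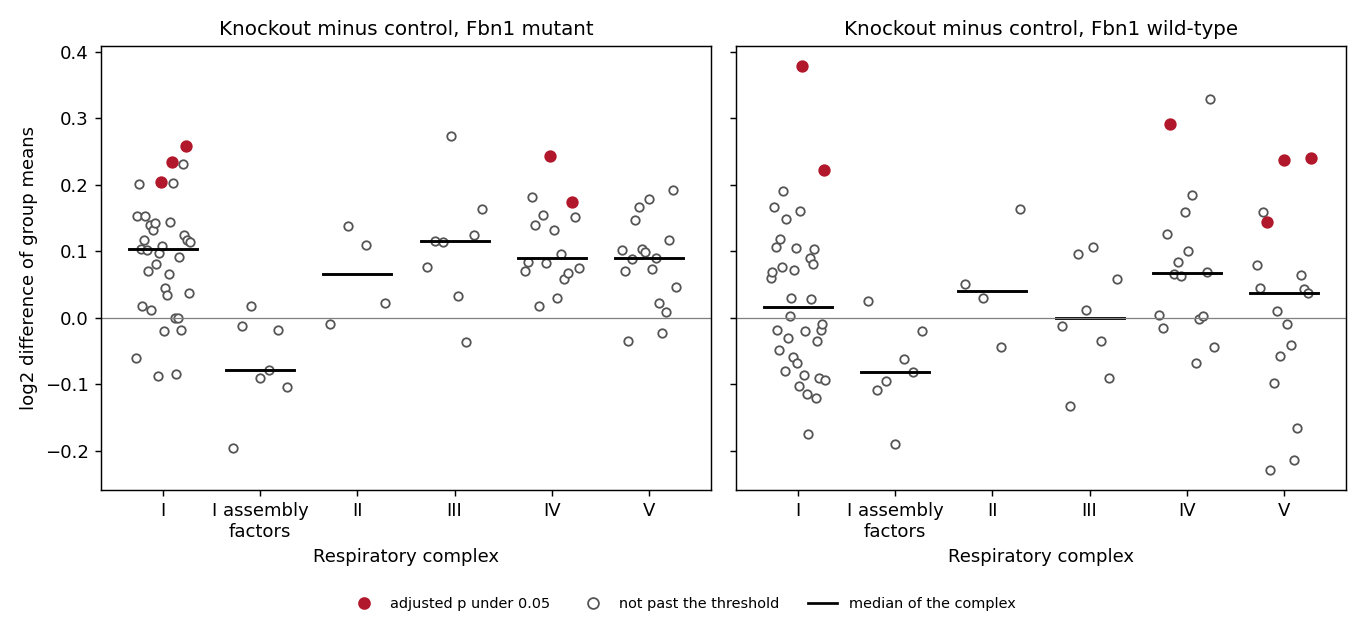
Log2 difference of group means between knockout and control for each of the 88 members tested, by complex, in the Fbn1 mutant (left) and wild-type (right). Filled points passed the threshold, open points did not, and bars are class medians; in the mutant most points of complexes I to V lie above 0, while in the wild-type they lie on both sides.

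In the Fbn1 mutant, 5 members rose with knockout and 0 fell, 5.68% of members against 13.4% of all genes called, 7.66% upward and 5.77% downward. Ndufs8, a core subunit with iron-sulfur clusters, read 11.77, 11.69 and 11.70 in mutant knockouts, against 11.40, 11.48 and 11.51 in mutant controls, a difference of 0.26 ± 0.067 (adjusted p = 0.0264). Ndufb9, an accessory subunit of the membrane arm, read 11.76, 11.73 and 11.81 in mutant knockouts, against 11.45, 11.55 and 11.60 in mutant controls, and differed by 0.23 ± 0.062 (adjusted p = 0.0287). Neither pair overlapped, yet in wild-type knockouts both genes stood below wild-type controls on average, by 0.02 and 0.11, without passing. Ndufb11 read 12.02, 12.07 and 12.03 in mutant knockouts, against 11.71, 11.90 and 11.90 in mutant controls, and Cox8a read 12.62, 12.63 and 12.60 in mutant knockouts, against 12.40, 12.48 and 12.45 in mutant controls. Both pairs were apart as well. Cox6b2 rose by 0.24, Ndufb11 by 0.20 and Cox8a by 0.17, with adjusted p of 0.0263, 0.0366 and 0.0238. The largest difference belonged to a gene that did not pass, Uqcrc1, a core protein of complex III, at 0.27 ± 0.098 (adjusted p = 0.0804), which read 12.36, 12.32 and 12.25 in mutant knockouts, against 11.80, 12.12 and 12.20 in mutant controls. The lowest 3 were the assembly factors Ndufaf1, at -0.20 ± 0.093 (adjusted p = 0.17), Ndufaf7, at -0.10 ± 0.064 (adjusted p = 0.279), and Ndufaf4, at -0.09 ± 0.079 (adjusted p = 0.445).

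Most of the members' differences in the mutant were above 0 and small. Of 88, 72 were above 0 (81.8%, beside 57.1% of all genes) and the median was 0.09, beside 0.03 over all genes. In 37 members (42%) every mutant knockout array stood above every mutant control array, and in 2 every one stood below, while over all genes tested the groups did not overlap in 35.9%, with 21.7% above and 14.1% below. Complexes I, II, III, IV and V had medians of 0.10, 0.07, 0.11, 0.09 and 0.09, and the assembly factors -0.08. The members' median was 0.05 with arrays centred on their medians, and -0.00155 with the brown adipocyte covariate. With the cardiac covariate it stayed at 0.09, with 72 members above 0, although no member was called. None of the 5 rises kept its call without the 2 arrays of high Ucp1, where Cox5a was called instead, without mutant knockout array 2, where Ndufa11 was called instead, or with either covariate. With median centring, or without any 1 of mutant knockout array 1 and mutant control arrays 1 and 2, 1 of the 5 kept it, and 2 did without mutant knockout array 3. Among all genes 0 were called with the brown adipocyte covariate and 63 with the cardiac one, against 2008 without them. Without the 2 arrays of high Ucp1, which leaves fewer arrays in each mutant group, 1082 of all genes were called. There the members' median was 0.09, with 71 of 88 above 0.

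In the Fbn1 wild-type, 6 members rose with knockout and 0 fell, 6.82% against 18.8% of all genes called, 9.17% upward and 9.66% downward. Ndufb6 had the largest rise, 0.38 ± 0.101 (adjusted p = 0.02), and Cox5b the smallest adjusted p, with 0.29 ± 0.053 (adjusted p = 0.00227). Cox8b lay between them in size, at 0.33 ± 0.378 (adjusted p = 0.601), and did not pass. Ndufv2 read 11.93, 11.84 and 11.92 in wild-type knockouts, against 11.73, 11.70 and 11.59 in wild-type controls, and rose by 0.22 ± 0.049 (adjusted p = 0.00796). Atp5pb read 11.52, 11.39 and 11.57 in wild-type knockouts, against 11.34, 11.28 and 11.14 in wild-type controls, and rose by 0.24 ± 0.063 (adjusted p = 0.0188). These pairs were apart, with wild-type control array 3 the lowest array of all 12 for each gene. Atp5h rose by 0.24 and Atp5d by 0.14, with adjusted p of 0.0152 and 0.0313.

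Other members went the other way without passing. Atp5e, the epsilon subunit of the rotating stalk, differed by -0.23 ± 0.085 (adjusted p = 0.0804), Atp5k, subunit e, by -0.21 ± 0.070 (adjusted p = 0.0514) and Ndufaf4 by -0.19 ± 0.079 (adjusted p = 0.114). Atp5k read 9.58, 9.56 and 9.80 in wild-type knockouts, against 9.77, 9.93 and 9.87 in wild-type controls, and the groups overlap, wild-type knockout array 3 lying above wild-type control array 1. It passed as a fall under 3 of the alternatives that keep all arrays. Of 88 members 49 were above 0 (55.7%, beside 47.2% of all genes), with a median of 0.02, beside -0.01 over all genes. The groups did not overlap in 13 members upward and 4 downward, and over all genes in 35.8%, with 16.2% upward and 19.6% downward. Of the 6 rises, 3 kept their call with only the wild-type arrays in the fit and 3 without wild-type control array 3. Without wild-type knockout array 3, 2 kept it and Atp5k fell. Without wild-type control array 1, 5 kept it among 7 rises, and Atp5e and Atp5k fell. None kept it with either covariate, under which 856 (brown adipocyte) and 680 (cardiac) of all genes were called, against 2814 without them.

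The difference between the knockout effects of the genotypes was tested directly. It passed in 0 of 88 members by limma, against 1.48% of all genes, 0.401% upward and 1.08% downward, with 14 members at an unadjusted p under 0.05. Ndufb9 came nearest, its effect being 0.35 ± 0.088 higher in the mutant (adjusted p = 0.0731), and it passed with array weights, at 0.36 (adjusted p = 0.0332). Ndufc1, an accessory subunit, and Atp5e followed, at 0.38 ± 0.120 (adjusted p = 0.145) and 0.37 ± 0.120 (adjusted p = 0.149). The lowest values were those of Ndufb6, at -0.34 ± 0.142 (adjusted p = 0.251), Ndufaf1, at -0.22 ± 0.131 (adjusted p = 0.419), and Atp5pb, at -0.19 ± 0.089 (adjusted p = 0.303).

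Fbn1 mutant arrays were also set against wild-type arrays within each Tgfbr2 state, which reuses the arrays of the knockout comparisons. Among controls, 2 members rose and 0 fell, 2.27% against 6.49% of all genes, 3.17% upward and 3.33% downward. These were Cox5b, at 0.21 ± 0.053 (adjusted p = 0.0375), and Ndufv2, at 0.21 ± 0.049 (adjusted p = 0.0288), which read 11.85, 11.92 and 11.88 in mutant controls, against 11.73, 11.70 and 11.59 in wild-type controls. Neither pair of groups overlapped. The largest differences that did not pass were those of Cox8b, at 0.51 ± 0.378 (adjusted p = 0.436), Cox7a1, at 0.33 ± 0.184 (adjusted p = 0.297), and Ndufb6, at 0.30 ± 0.101 (adjusted p = 0.0974). The lowest were Ndufaf4, at -0.23 ± 0.079 (adjusted p = 0.097), Uqcr11, a small subunit of complex III, at -0.22 ± 0.066 (adjusted p = 0.0702), and Ndufc1, at -0.21 ± 0.085 (adjusted p = 0.155). The groups did not overlap in 9 members upward and 6 downward, beside 28.1% of all genes, 11.4% upward and 16.6% downward. Of the marker lists, 2 of 11 brown adipocyte and 2 of 15 macrophage markers rose here, and 0 of 17 cardiac markers passed limma's test, with 6 at an unadjusted p under 0.05. The count of 2 was 0 with median centring, with only these groups in the fit, without the 2 arrays of high Ucp1, with either covariate, and without any 1 of wild-type control arrays 2 and 3 and the 3 mutant control arrays. It was 1 without any 1 of mutant knockout arrays 1 and 2 and wild-type knockout array 1, and 4 without wild-type control array 1.

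Among knockouts, 1 member rose and 0 fell, 1.14% against 5.96% of all genes, 2.8% upward and 3.16% downward. This was Cox4i2, an isoform of a nuclear subunit of complex IV that is known from lung and responds to low oxygen. It read 9.97, 9.99 and 10.07 in mutant knockouts, against 9.76, 9.69 and 9.78 in wild-type knockouts, and rose by 0.26 ± 0.061 (adjusted p = 0.0253). Its widespread partner Cox4i1 differed by 0.09 ± 0.053 (adjusted p = 0.372). The 2 groups were apart for Cox4i2, and its controls read 9.88, 9.85 and 10.04 in the mutant, against 9.68, 9.84 and 9.76 in the wild-type, also apart but not past the threshold (adjusted p = 0.131). Of 88 members 72 were above 0 (81.8%, beside 55.3% of all genes), with a median of 0.06, beside 0.01 over all genes. The groups did not overlap in 25 members upward and 4 downward, beside 26.3% of all genes, 14.4% upward and 11.9% downward. Cox8b had the largest difference, 0.34 ± 0.378 (adjusted p = 0.676), and after Cox4i2 came Ndufv3, at 0.25 ± 0.069 (adjusted p = 0.0564), Atp5o, at 0.24 ± 0.071 (adjusted p = 0.0675), and Uqcrc1, at 0.24 ± 0.098 (adjusted p = 0.183). The lowest were Ndufaf1, at -0.23 ± 0.093 (adjusted p = 0.178), Ndufa4l2, at -0.14 ± 0.104 (adjusted p = 0.516), and Ndufaf4, at -0.13 ± 0.079 (adjusted p = 0.375). In the same comparison 4 of 11 brown adipocyte markers rose and 1 fell, 1 of 17 cardiac markers rose with all 17 differences above 0, and 8 of 15 macrophage markers fell. Their part in the members' differences was not tested. The covariate fits cannot decide it, since the brown adipocyte and cardiac scores themselves differed between these groups. Macrophage markers had no such fit. The single call was lost with median centring, with either covariate, and without any 1 of the 6 knockout arrays, and the count was 2 without any 1 of mutant control arrays 1 and 3 and wild-type control arrays 1 and 3.

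Set side by side, mutant knockouts held the highest mean of the 4 groups in 59 of the 88 members (67%), beside 30% of all genes. Wild-type controls held the lowest in 37 members (42%), beside 23.1% of all genes. Averaged over the 88 members, the score of mutant knockout arrays was 0.08, 0.02 and 0.09, and that of mutant control arrays -0.07, 0.0048 and 0.01. It was -0.04, -0.02 and 0.04 in wild-type knockouts and -0.05, -0.0040 and -0.05 in wild-type controls. Every mutant knockout array stood above every mutant control array, though narrowly, with 0.0212 on knockout array 2 and 0.0144 on control array 3. Wild-type groups overlapped. Over all genes tested the same score was -0.0060, -0.016 and 0.051 in mutant knockouts and -0.017, -0.016 and -0.0099 in mutant controls.

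Cox8b and Cox7a1, isoforms typical of striated muscle and brown fat, varied most between arrays. The SD between arrays of a group, pooled over groups, had a median of 0.0767 over the members, beside 0.0814 over all genes, and exceeded 0.2 in 2 members, Cox8b (0.576) and Cox7a1 (0.276). Cox8b read 9.17, 8.20 and 8.78 in mutant knockouts, against 7.76, 8.36 and 9.58 in mutant controls, and 8.14, 8.08 and 8.91 in wild-type knockouts, against 7.89, 8.12 and 8.15 in wild-type controls. The groups overlapped, and the highest 2 arrays were mutant control array 3 and mutant knockout array 1, the same 2 that were highest for Ucp1, the uncoupling protein of brown fat. Cox7a1 read 8.82, 8.30 and 8.51 in mutant knockouts, against 8.19, 8.33 and 9.02 in mutant controls, and 8.30, 8.24 and 8.57 in wild-type knockouts, against 8.11, 8.27 and 8.17 in wild-type controls, with the same 2 arrays highest. Ucp1 read 8.21, 7.30 and 6.88 in mutant knockouts, against 6.76, 6.75 and 8.58 in mutant controls, and stayed between 6.75 and 6.93 on the 6 wild-type arrays. Adipoq, made by all adipocytes, read 8.52, 7.40 and 8.38 in mutant knockouts, against 7.05, 7.86 and 8.66 in mutant controls, and 7.72, 7.58 and 8.53 in wild-type knockouts, against 7.41, 7.59 and 8.13 in wild-type controls.

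**Figure D3:**
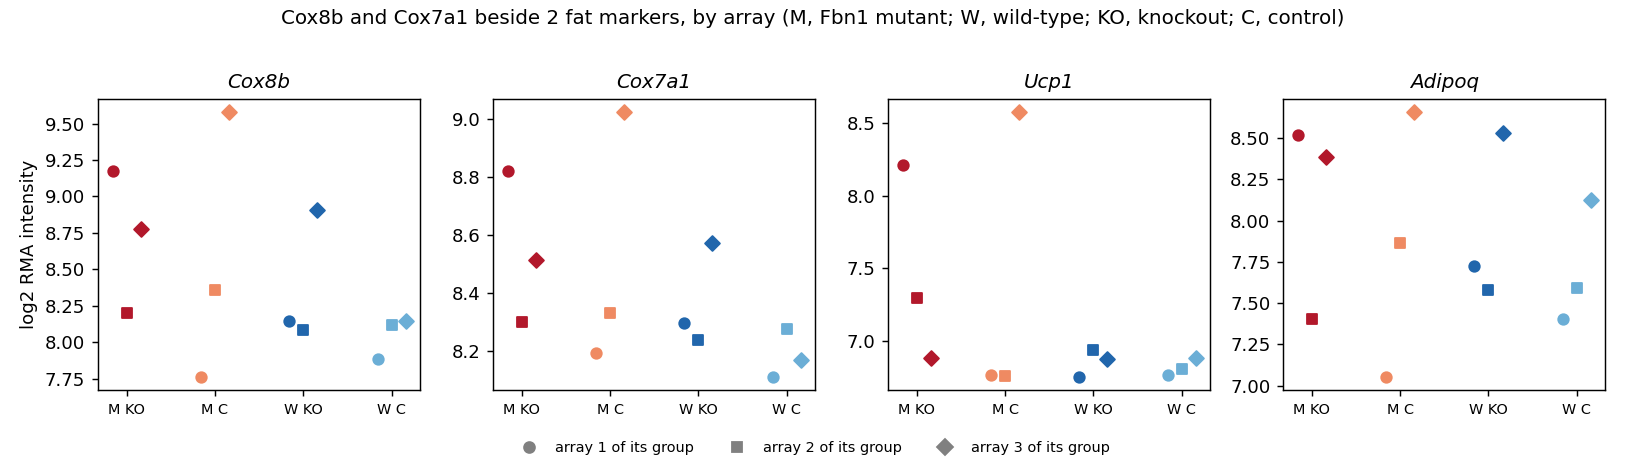
Log2 intensity of Cox8b, Cox7a1, Ucp1 and Adipoq on each of the 12 arrays by group, with symbols for the array's number within its group. Mutant control array 3 and mutant knockout array 1 were the highest 2 arrays for Cox8b, Cox7a1 and Ucp1.

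Neither isoform passed in any comparison, nor did Cox6a2, the striated muscle isoform of Cox6a, which differed by 0.12 ± 0.061 (adjusted p = 0.156) in the mean knockout effect, or Cox8c, at 0.02 ± 0.055 (adjusted p = 0.852). Of their widespread partners, Cox6a1 differed by 0.04 ± 0.053 (adjusted p = 0.576), Cox6b1 by 0.07 ± 0.035 (adjusted p = 0.13) and Cox7a2 by 0.01 ± 0.033 (adjusted p = 0.779), and of these partners Cox8a passed. Ndufa4, counted with complex I here by its symbol but now assigned to complex IV by biochemistry, differed by 0.09 ± 0.047 (adjusted p = 0.174). Ndufa4l2, its paralogue known to be induced by low oxygen and likewise counted with complex I, differed by 0.13 ± 0.073 (adjusted p = 0.199).

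Other nuclear genes of mitochondria, taken from lists beside the members, were called in small numbers. Over these lists and that of glycolysis, 8 in all, between 0% and 15% of a list rose in the mutant and between 0% and 13.6% in the wild-type, beside 7.66% and 9.17% of all genes. Among 15 genes of the chain outside the symbol rule, Etfb, a subunit of the electron transfer flavoprotein, rose by 0.34 ± 0.058 in the mutant and by 0.31 ± 0.058 in the wild-type (adjusted p = 0.00293 and 0.00248). Cytochrome c, Cycs, rose by 0.22 ± 0.065 (adjusted p = 0.0327) in the wild-type, and no other gene of that list passed in either genotype. Of 32 assembly factors, 3 rose in the mutant and 2 in the wild-type, Uqcc2, for complex III, in both, by 0.31 ± 0.054 (adjusted p = 0.004) in the mutant and 0.21 ± 0.054 (adjusted p = 0.0176) in the wild-type. Cox20, for complex IV, rose by 0.36 ± 0.072 (adjusted p = 0.00858) in the mutant. Of 19 genes of the tricarboxylic acid cycle, 2 rose in the mutant and 1 in the wild-type, with Mdh2, malate dehydrogenase, at 0.31 ± 0.068 (adjusted p = 0.0124) in the mutant and 0.25 ± 0.068 (adjusted p = 0.0229) in the wild-type.

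Of 15 fatty acid oxidation genes 1 rose in the mutant, Hadh, at 0.23 ± 0.053 (adjusted p = 0.0153), and 0 in the wild-type, where 2 had an unadjusted p under 0.05. The 29 mitochondrial ribosome genes gave 0 calls in the mutant, with 4 at an unadjusted p under 0.05, and 1 fall in the wild-type, Mrpl18, at -0.27 ± 0.053 (adjusted p = 0.00393). Among 21 regulators of mitochondrial biogenesis, Ppargc1a, a coactivator for NRF1 and its targets that is also listed as a brown adipocyte marker, rose by 0.82 ± 0.103 (adjusted p = 0.000403) in the mutant. It read 10.27, 10.11 and 10.14 in mutant knockouts, against 9.24, 9.33 and 9.47 in mutant controls, and 9.50, 9.52 and 9.40 in wild-type knockouts, against 9.49, 9.20 and 9.00 in wild-type controls. In the wild-type it differed by 0.24 ± 0.103 (adjusted p = 0.126) and did not pass, while Lrpprc, needed for mitochondrial messenger RNA, fell by 0.26 and Polg, the mitochondrial DNA polymerase, by 0.21, with adjusted p of 0.0174 and 0.0399. Of 20 glycolysis genes 3 rose and 2 fell in the mutant, with Ldhb at 0.47 ± 0.071 (adjusted p = 0.0016), and 1 rose and 3 fell in the wild-type, with Pfkm at -0.35 ± 0.053 (adjusted p = 0.000695). Of 22 carriers and membrane proteins 2 rose in the mutant, and 3 rose and 2 fell in the wild-type. Among these falls was Nnt, the transhydrogenase, at -0.81 ± 0.237 (adjusted p = 0.0315). It read 11.10, 10.33 and 10.37 in wild-type knockouts, against 11.29, 11.72 and 11.21 in wild-type controls, but 11.32, 10.48 and 10.41 in mutant knockouts, against 10.41, 10.30 and 10.30 in mutant controls. The difference in the mutant was 0.40 ± 0.237 (adjusted p = 0.265), which did not pass, and between mutant and wild-type controls it was -1.07 ± 0.237 (adjusted p = 0.021). Nnt stood at 2 levels, 10.30 to 10.48 and 11.10 to 11.72, and both knockout groups held arrays at each level. Its differences were thus not an even shift with knockout, and their cause was not tested.

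**Figure D4:**
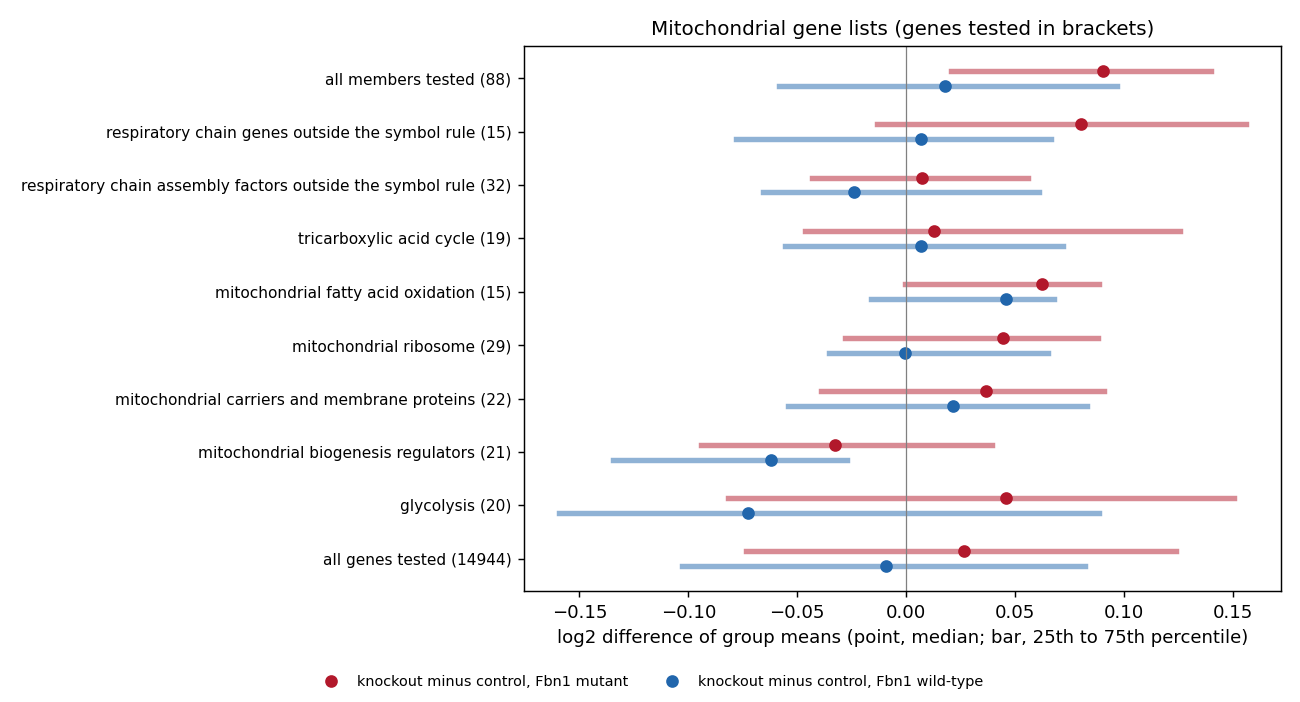
Median (point) and 25th to 75th percentile (bar) of the log2 differences between knockout and control for the 88 members, 8 other lists and all genes tested, in the Fbn1 mutant (red, upper) and wild-type (blue, lower). The members' median was 0.09 in the mutant and 0.02 in the wild-type, beside 0.03 and -0.01 over all genes.

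Where a member had several probe sets these mostly moved together. In 16 of 17 such genes all probe sets tested had 1 sign in the mean knockout effect, the exception being Cox7a2l. Of the 6 genes that rose in that effect and had several, 5 passed on all of them, and the other probe set of Ndufb11 gave 0.09 (adjusted p = 0.209). In the wild-type, the other probe sets of Atp5h and Cox5b passed as well, but that of Atp5pb gave 0.12 (adjusted p = 0.0718). In the mutant, the other probe set of Ndufb11 gave 0.15 (adjusted p = 0.192). Probe sets of 1 gene may read near-identical copies elsewhere in the genome, and their positions were not analysed here.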

How the data were processed

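RNA of 12 samples of ascending aorta was hybridised to 1-colour Affymetrix whole-transcript arrays. The deposited values are linear intensity, made by the authors with RMA in Partek 6.4 per the submitters' processing notes, and the order of these steps is not given in the sources used here. Log2 was taken first. Of 35556 probe sets, the 21789 annotated to 1 symbol gave 19938 genes by highest mean, and those under the 25th percentile were left out. limma 3.58.1 in R 4.3.3 (lmFit and eBayes, 8 residual degrees of freedom) gave each group its own mean in a single model of the 12 arrays, in 6 contrasts, two-sided, with Benjamini-Hochberg adjustment over 14944 genes at 0.05. The number of arrays limits precision. The procedure was tested on simulated data. Alternatives were 12 settings and leaving out each array. Named were members called in any contrast, the 3 largest rises and falls of each, tissue isoforms with their partners, and up to 3 genes of smallest p per list. The highest and lowest member of each complex, also in that rule, were not named, since levels of different probe sets cannot be compared. Members and lists were chosen with earlier results of these data known. The labels state no pairing of arrays by number, and the main fit used none. Deviations of arrays of the same number correlated at -0.21 to 0.24 between groups, which with so few arrays cannot decide it.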

Additional observations from a re-analysis of the deposited data

Results flagged for a closer look

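Kcnk3, a potassium channel gene listed as a brown adipocyte marker, had knockout effects that differed between the Fbn1 genotypes by 0.7442 on the log2 scale (limma's adjusted p = 0.0346). It read 11.60, 11.64 and 11.13 in mutant knockouts, against 10.15, 10.34 and 10.18 in mutant controls, and 10.32, 10.30 and 10.29 in wild-type knockouts, against 9.72, 9.87 and 9.84 in wild-type controls. The rise was 1.24 ± 0.108 (adjusted p = 3.44e-05) in the mutant and 0.49 ± 0.108 (adjusted p = 0.00753) in the wild-type.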

How the results depend on the processing

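Counts of members called moved with several choices, and the cause was not tested. For knockout against control in the mutant, 5 members were called, and 8 with quantile normalization, 8 with an intensity trend, 11 (10 up, 1 down) with array weights, 3 with only the groups compared, 1 with arrays centred on their medians, 1 without the 2 arrays of high Ucp1 (Cox5a, none of the 5) and 0 with either covariate, with 1 to 6 when leaving out each array. In the wild-type 6 were called, 3 with only the groups compared and 0 with either covariate, with 3 to 9 when leaving out each array, of which up to 2 were falls. For the mean effect 15 were called, 5 (4 up, 1 down) with median centring, 7 without the 2 arrays and 0 with either covariate, with 9 to 15 when leaving out each array, of which up to 1 was a fall. For the Fbn1 mutant among controls 2 were called, 4 (3 up, 1 down) with the trend, 4 (2 up, 2 down) with array weights, 1 with the replicate block, and 0 with median centring, only the groups compared, without the 2 arrays, or with either covariate, with 0 to 4 when leaving out each array. Among knockouts 1 was called, 2 with a filter at the median, the trend or the replicate block, 3 with only the groups compared, 5 with array weights, and 0 with median centring or either covariate, with 0 to 2 when leaving out each array. For the difference of effects 0 were called and 1 with array weights, and 0 when leaving out each array.

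With the brown adipocyte covariate Ndufb9 in the mutant turned to -0.00323 (adjusted p = 0.999) and Ndufb6 in the mean effect to -0.0570 (adjusted p = 0.969). With array number as a replicate block, 5, 5 and 13 members were called for the knockout in the mutant, the wild-type and the mean, and 0 for the difference of effects. Of the 6 arrays in each comparison, 3, 2, 4 and 0 lay nearest to the array of their own number in the other group, for the knockout in the mutant and the wild-type and for Fbn1 among controls and among knockouts. Fitting only the groups compared was not run for the mean effect and the difference of effects, which use all groups. Detection calls and values per probe were not used here, so the least change that each probe set could show is unknown.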
